A study of Mus musculus with 12 samples.

Results

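The tumour necrosis factor (TNF) superfamily comprises the ligands and receptors through which many immune cells exchange signals for survival, activation and death. Its expression was examined in bone marrow-derived basophils (BMBAs), at 2 stages of maturation and in cultures with either of 2 cytokines. Members were taken by symbol: every symbol beginning with Tnfsf or Tnfrsf, together with Tnf, Lta, Ltb, Ltbr, Fas, Fasl, Cd27, Cd40, Cd40lg and Cd70. Of the 31301 symbols measured, 42 matched, namely 17 ligands, 24 receptors and the opposite-strand transcript Tnfsf13os. Cd40lg was not analysed here. Levels are given as CPM, the counts of a gene per 1e+06 counts of its library, scaled by TMM (trimmed mean of M values). With a minimum of 1 CPM on average over all libraries, 23 members remained, of which 8 were ligands and 15 were receptors, and 20 of these had enough counts to be tested.

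Bone marrow cells of C57BL/6J WT mice were cultured for 7 days with 0.3 ng/mL interleukin-3 (IL-3) or with 1 µg/mL thymic stromal lymphopoietin (TSLP). The sex and age of the mice were not given in the labels. Among CD200R3+ c-Kit- basophils, cell sorting separated FcεRIαhi CD49blo cells (immature, called pre-basophils) from FcεRIαlo CD49bhi cells (mature), which gave 4 groups of 3 libraries. Within a group, each library came from a separate culture. The comparisons ask how the stages differ within a culture and how the cultures differ at a stage. Library totals ran from 1720065 to 3685285 counts. The basophil identity of the cells was checked on 8 marker genes, none of which stayed below 10 CPM throughout, and Mcpt8, a basophil protease, was at 2166 CPM or more in every library. The sum of these 8 genes was 37946 to 41408 CPM in immature IL-3, 9477 to 11796 in mature IL-3, 26803 to 29793 in immature TSLP and 7506 to 10670 in mature TSLP libraries. The lower sums of mature libraries came mainly from Mcpt8 and Prss34. With IL-3, Prss34 was at 17108 to 21227 CPM in immature and 684 to 918 CPM in mature libraries. Cd200r3 instead was at 662 to 766 against 1185 to 1392 CPM. Gata2 was also higher in mature IL-3 libraries, while Ms4a2 was lower. Lists of T cell, NK cell and erythroid markers had no gene above 10 CPM in any library. The same held for 6 of 7 mast cell markers (Tpsab1 at 0 throughout), the exception being Cpa3 at 656 to 3228 CPM. It also held for 4 of 5 dendritic cell markers, while 3 of 4 eosinophil and 2 of 3 megakaryocyte markers passed 10 CPM in some library, the last including Itga2b at 583 to 1072 CPM. One library, TSLP mature 1, stood apart from its replicates: its counts differed from theirs by 40.8 and 51.4 times the sampling variance, against 2.08 to 13.1 for all other pairs of replicates, and its 9 B cell markers summed to 181 CPM against 21.3 and 23.1 CPM. Itga2, which encodes CD49b, was at 22.5 to 31.0 CPM in immature and 192 to 309 CPM in mature IL-3 libraries, and at 81.5 to 89.1 against 96.9, 209 and 199 CPM with TSLP. Fcer1a was at 1584 to 1614 against 865 to 1267 CPM with IL-3, while with TSLP the stages overlapped, at 1222 to 1530 against 1779, 871 and 1141 CPM. The study also used CLEC12A, high in pre-basophils, and CD9, high in mature cells. With TSLP, Clec12a was at 113 to 145 CPM in immature and 1.54 to 12.1 CPM in mature libraries. Cd9 was at 457 to 638 against 771 to 1356 CPM. TSLP mature 1 thus had the lowest Itga2 of the mature libraries and the highest Fcer1a of all 12, which goes partly against its label. Its Clec12a and Cd9 went with its label. For members, results without this library are therefore given where it changed a call, and for some other values. Single signalling genes are given with all libraries only.

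Ligands of the family are trimers, held on the cell surface or released by proteases, and they cluster their receptors on the target cell. The receptors either recruit TRAF adaptors, which lead to the kinases and transcription factors of the NF-κB pathway, or carry a death domain through which caspases or RIP kinases can be engaged. Some receptors lack a signalling domain and act as decoys. Basophils are a source of cytokines in allergy and helminth infection, and TNF is among the factors they can release.

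Per kilobase of annotated exon, which allows genes of different length to be compared, Tnfsf14 and Tnfrsf18 ranked highest or second in each group. Tnfsf14 encodes LIGHT, a ligand of the lymphotoxin β receptor and of HVEM, and Tnfrsf18 encodes GITR, a costimulatory receptor. In immature IL-3 cells Tnfsf14 was at 30.3 ± 17.0 and Tnfrsf18 at 26.9 ± 2.04 CPM per kb (mean ± SD, n = 3), and the libraries overlapped. In mature IL-3 cells Tnfsf14 was at 88.8 ± 19.3 CPM per kb, above all libraries of Tnfrsf18 (44.5 ± 4.45) and of Ltb (43.7 ± 2.36), which in turn overlapped each other. In immature TSLP cells Tnfrsf18 came first at 43.6 ± 0.563 CPM per kb, above Tnfsf14 (27.6 ± 3.06) and Tnfrsf1b (25.1 ± 3.20), which overlapped. In mature TSLP cells the order was Tnfrsf18 (64.1 ± 19.3), Tnfsf14 (43.7 ± 5.96), Ltb (31.9 ± 16.8) and Tnfrsf1b (26.7 ± 1.68 CPM per kb), and each of these overlapped with the next. At the other end, Tnfrsf23 was at 0.0961 ± 0.167 CPM per kb in immature IL-3 cells, the lowest value of the 23 members in any group.

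In the comparison of mature with immature cells, the TNF family members that passed the test were all higher in mature BMBAs. In IL-3 cultures 11 of the 20 tested members passed (quasi-likelihood test of edgeR, p adjusted by Benjamini-Hochberg over 10861 genes, threshold 0.05), namely 6 of 7 ligands and 5 of 13 receptors. Of the 6 ligands, 3 (Tnfsf12, Tnfsf13 and Tnfsfm13) share sequence at a single locus and are not separate measurements. In sorted bulk samples, a larger share of cells with a transcript and more RNA per cell cannot be told apart. Over all genes 46.2% passed in this comparison, 24.1% with higher and 22.1% with lower levels in mature cells. In TSLP cultures 7 members passed, 3 ligands and 4 receptors, against 25.1% of all genes, 12.9% higher and 12.2% lower. The share of higher genes among all genes that passed here was 51.4%, but 42.2% with Rn45s left out and 39.4% without TSLP mature 1. No member passed with a lower level in mature cells in either culture, by edgeR or by DESeq2, and none had a lower level at an unadjusted p under 0.05. The median log2 fold change of mature over immature cells was 0.99 over the tested members and 0.06 over all genes in IL-3 cultures, and 0.61 against 0.03 in TSLP cultures. A low-expressed member that entered the test through its level in a single group had to differ between groups, so these counts and medians describe the members and are not evidence about the family. Leaving out TSLP immature 1 or TSLP immature 3 reduced the count in TSLP cultures to 4.

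**Figure D1:**
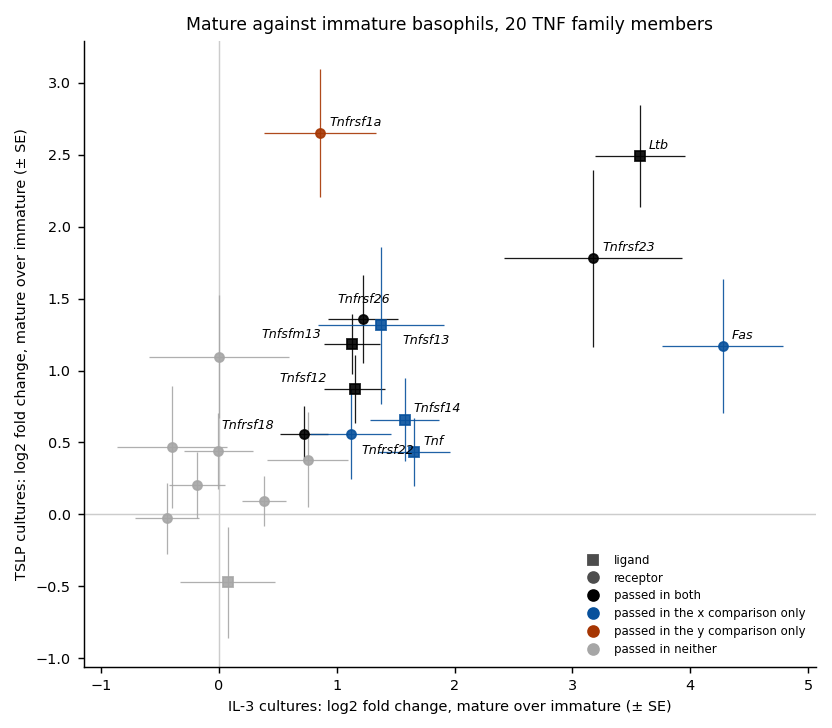
Log2 fold change of mature over immature BMBAs for the 20 tested members, in IL-3 cultures (x axis) and in TSLP cultures (y axis), with standard errors as bars; squares are ligands and circles receptors. Ltb passed in both cultures with large changes. Tnfrsf23 also passed in both, on few counts, and its TSLP call was lost in 9 of the 12 fits that left out a library. Fas lies far to the right at 4.27 in IL-3 against 1.17 in TSLP cultures, and Tnfrsf1a lies at the top with 2.65 in TSLP cultures.

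In the comparison of TSLP with IL-3 cultures, 6 of 13 tested receptors and 2 of 7 tested ligands passed in mature cells. There 8 of 20 members passed, 6 higher with TSLP (Tnfrsf1b, Tnfrsf21, Ltbr, Tnfrsf1a, Tnfrsf13b and the ligand Tnfsfm13) and 2 lower (Tnfsf14 and Fas), against 24.3% of all genes, 12.4% higher and 11.9% lower. Ribosomal Rn45s took 7.43% to 12.5% of the counts of the IL-3 libraries and 17.5% to 20.2% of those of the immature TSLP libraries. It took 8.68% in TSLP mature 1, within the range of the IL-3 libraries, and 15.8% and 17.4% in its replicates. Rn45s thus moved with the culture except in TSLP mature 1. Beyond the scalings without Rn45s, its part in these differences was not tested. When the ribosomal symbols were left out of the library totals, the share of higher genes among all genes that passed here moved from 51.1% to 40.6%. In immature cells 4 members passed, all higher with TSLP (Tnfrsf1b, Tnfrsf18, Tnf and Tnfsfm13), against 13.3% of all genes, 7.38% higher and 5.9% lower. The median log2 fold change of TSLP over IL-3 was 0.44 over the members and 0.09 over all genes in mature cells, and 0.63 against 0.04 in immature cells. The limit on members that entered the test through a single group holds here too. These counts and medians are likewise not evidence about the family. The count in mature cells fell to 4 when IL-3 mature 1 was left out and to 5 when IL-3 mature 3 was. The count in immature cells was 2 without IL-3 immature 3, IL-3 mature 2, IL-3 mature 3, TSLP immature 2 or TSLP immature 3, and 2 with DESeq2.

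**Figure D2:**
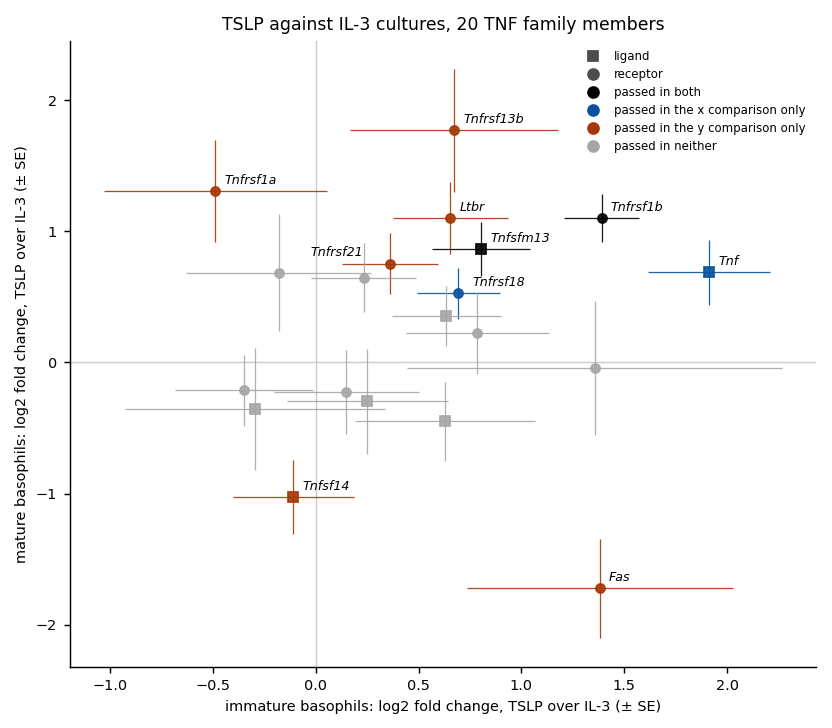
Log2 fold change of TSLP over IL-3 cultures for the 20 tested members, in immature cells (x axis) and in mature cells (y axis), with standard errors as bars; squares are ligands and circles receptors. Tnfrsf1b and Tnfsfm13 passed at both stages, Tnf has the largest value in immature cells (1.91), and Fas (-1.72) and Tnfsf14 (-1.03) lie below 0 in mature cells.

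The difference between cultures in the maturation effect was tested as an interaction, in which a negative value means a smaller rise with TSLP. A single member, Fas, passed, against 4.19% of all genes. None of the 7 ligands passed by edgeR or DESeq2, although 2 of them, Tnf and Tnfsf14, had an unadjusted p under 0.05. The call of Fas was lost in fits without IL-3 immature 2, IL-3 mature 1, 2 or 3, TSLP immature 1 or TSLP immature 3. The number of members that passed was 0 in these fits except that without IL-3 immature 2, where Tnf passed, and 2 without IL-3 immature 1 or TSLP mature 1.

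Among the ligands, Ltb changed the most with maturation. It encodes lymphotoxin β, which anchors lymphotoxin α at the cell surface and signals through the lymphotoxin β receptor, and lies at chr17:35194439-35196320 of the mouse GRCm38 assembly (GENCODE annotation), on the plus strand, next to Tnf and Lta. The bases before its annotated start are shown because Ltb and Fas had the largest maturation effects among the members in IL-3 cultures. Capitals mark a match to the STAT motif TTCNNNGAA (first) and to the NF-κB motif GGNNTTTCC (second, read on the opposite strand), both searched on both strands, and the 2 matches do not overlap. The stretch is chr17:35194257-35194438 of GRCm38, plus strand, from RefSeq.
Ltb: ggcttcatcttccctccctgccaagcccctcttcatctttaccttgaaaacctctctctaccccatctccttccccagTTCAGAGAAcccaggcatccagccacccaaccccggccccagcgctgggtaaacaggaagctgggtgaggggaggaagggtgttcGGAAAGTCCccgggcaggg
In IL-3 cultures Ltb was at 10.2, 4.29 and 3.31 CPM in immature libraries 1 to 3 and at 64.8, 70.3 and 63.6 CPM in mature libraries 1 to 3. In TSLP cultures it was at 9.62, 8.60 and 7.49 CPM in immature and at 77.7, 35.5 and 32.0 CPM in mature libraries. All mature libraries lay above all immature ones in both cultures, and the high value of TSLP mature 1 stood apart from the other 2. The rise with maturation was 3.57 ± 0.38 on the log2 scale in IL-3 cultures (log2 fold change ± SE, adjusted p = 1.45e-06) and 2.49 ± 0.36 in TSLP cultures (adjusted p = 8.47e-05), the latter 1.87 without TSLP mature 1. Between the cultures, mature cells did not pass (TSLP over IL-3 -0.45 ± 0.30, adjusted p = 0.30). Without TSLP mature 1, however, Ltb was lower in TSLP than in mature IL-3 cells (log2 fold change -1.06, adjusted p = 0.00303) and its rise was smaller with TSLP (interaction -1.67, adjusted p = 0.0174). Over all genes, 723 passed in the interaction without this library, against 455 with it. The partner gene Lta had 3 counts over all 12 libraries.

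Tnf, the founding member of the family and a major inflammatory cytokine, lies beside Ltb at chr17:35199381-35202007 on the minus strand. It was at 2.91, 5.14 and 2.32 CPM in immature IL-3 and at 9.97, 12.4 and 11.7 CPM in mature IL-3 libraries. With TSLP it was at 13.2, 14.8 and 12.6 CPM in immature and at 18.1, 15.6 and 21.2 CPM in mature libraries. Thus immature IL-3 libraries were the low group, and the other 9 libraries lay above all 3 of them. The difference between cultures in immature cells was 3.92-fold (log2 fold change 1.91 ± 0.30, adjusted p = 0.000697), and the rise with maturation in IL-3 cultures was 3.29-fold (1.66 ± 0.31, adjusted p = 0.000338). The rise in TSLP cultures (0.43 ± 0.24, adjusted p = 0.204) and the difference between cultures in mature cells (0.69 ± 0.25, adjusted p = 0.0531) did not pass. The interaction did not pass (-1.23 ± 0.39, adjusted p = 0.0911), except in the fit without IL-3 immature 2 (-1.72, adjusted p = 0.0411).

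Tnfsf14 (chr17:57189492-57194177, minus strand) was the most abundant ligand per kilobase in every group. Its values were 91.7, 33.1 and 43.0 CPM in immature IL-3 and 194, 173 and 125 CPM in mature IL-3 libraries. With TSLP they were 55.0, 44.5 and 53.5 CPM in immature and 91.2, 69.2 and 81.5 CPM in mature libraries. Mature libraries lay above immature ones in both cultures, and the 3 mature IL-3 libraries were the highest of the 12. The rise in IL-3 cultures was 1.58 ± 0.29 (log2 fold change ± SE, adjusted p = 0.000368), while that in TSLP cultures was 0.66 ± 0.29 (adjusted p = 0.108). The latter passed in fits without IL-3 immature 1 (adjusted p = 0.0435), with the replicate number as a block (0.0446), with the TSLP groups alone (0.0447) or with no filter (0.0399). Mature cells held 2.03-fold less Tnfsf14 with TSLP than with IL-3 (log2 fold change -1.03 ± 0.28, adjusted p = 0.0166), and this call was lost without IL-3 mature 1 (-0.88, adjusted p = 0.0659). The 91.7 CPM of IL-3 immature 1 was the highest immature value, and the interaction, -0.92 ± 0.41 (adjusted p = 0.240), passed in the fit without that library (-1.50, adjusted p = 0.0152).

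Tnfsf12, Tnfsf13 and Tnfsfm13 form a single locus on the minus strand of chromosome 11 (chr11:69682577-69696098). Tnfsf12 encodes TWEAK, Tnfsf13 encodes APRIL, a factor that acts on B and plasma cells, and Tnfsfm13 is the read-through transcript of both. Of its 50-base stretches, 71.0% also occur in transcripts of other symbols, mainly Tnfsf12 and Tnfsf13, and 46.8% of those of Tnfsf12 and 57.3% of those of Tnfsf13 are likewise shared. Reads from the shared stretches could not be assigned to a single symbol, so the 3 genes are uncertain as separate measurements. Tnfsfm13 was at 8.25, 12 and 7.95 CPM in immature IL-3, 22.1, 21.5 and 18.9 in mature IL-3, 13.5, 18.4 and 18.4 in immature TSLP and 42.6, 31.8 and 39.7 CPM in mature TSLP libraries. The groups did not overlap in any of the 4 comparisons. It rose with maturation by 1.13 ± 0.23 on the log2 scale with IL-3 (adjusted p = 0.000954) and by 1.19 ± 0.21 with TSLP (adjusted p = 0.000586), and was higher with TSLP in mature (0.86 ± 0.21, adjusted p = 0.00779) and in immature cells (0.80 ± 0.24, adjusted p = 0.0342). The last of these calls was lost without IL-3 immature 1 or 3, IL-3 mature 2 or 3, or TSLP immature 2 or 3 (0.65 to 1.01 over all fits that left out a library, adjusted p up to 0.146), with DESeq2 (adjusted p = 0.0645), with no filter (0.0661) and with the 2 immature groups alone (0.0519).

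Tnfsf12 was at 6.31, 9.71 and 9.60 CPM in immature IL-3 and at 19.2, 22.2 and 16.7 CPM in mature IL-3 libraries. With TSLP it was at 13.2, 16.4 and 11.2 CPM in immature and at 31.6, 21.3 and 21.5 CPM in mature libraries. Stages did not overlap within a culture. The rise was 1.15 ± 0.26 on the log2 scale with IL-3 (adjusted p = 0.00172) and 0.87 ± 0.24 with TSLP (adjusted p = 0.0129). The latter call was lost without TSLP mature 1 (0.56, adjusted p = 0.0789), TSLP immature 1 (0.79, adjusted p = 0.0834) or TSLP immature 3 (0.66, adjusted p = 0.096), and with the TSLP groups alone (adjusted p = 0.0584). Tnfsf13 was low, at 3.396, 1.71 and 0.331 CPM in immature IL-3, 4.27, 3.64 and 5.41 in mature IL-3, 1.20, 0.781 and 2.04 in immature TSLP and 3.51, 3.405 and 3.38 CPM in mature TSLP libraries. Its stages did not overlap, and its rise passed in IL-3 cultures (1.38 ± 0.54, adjusted p = 0.046) and not in TSLP cultures (1.31 ± 0.55, adjusted p = 0.0904). The call in IL-3 cultures rested on few counts. Among the fits that left out a library it held without IL-3 immature 1 (1.98) or TSLP mature 1 (1.34) and was lost in the other 10, down to 0.81 without IL-3 immature 3. It was also lost with DESeq2 (adjusted p = 0.0705), DESeq2 size factors (0.058), no filter (0.10), Rn45s left out (0.0579) and the replicate block (0.0546).

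**Figure D3:**
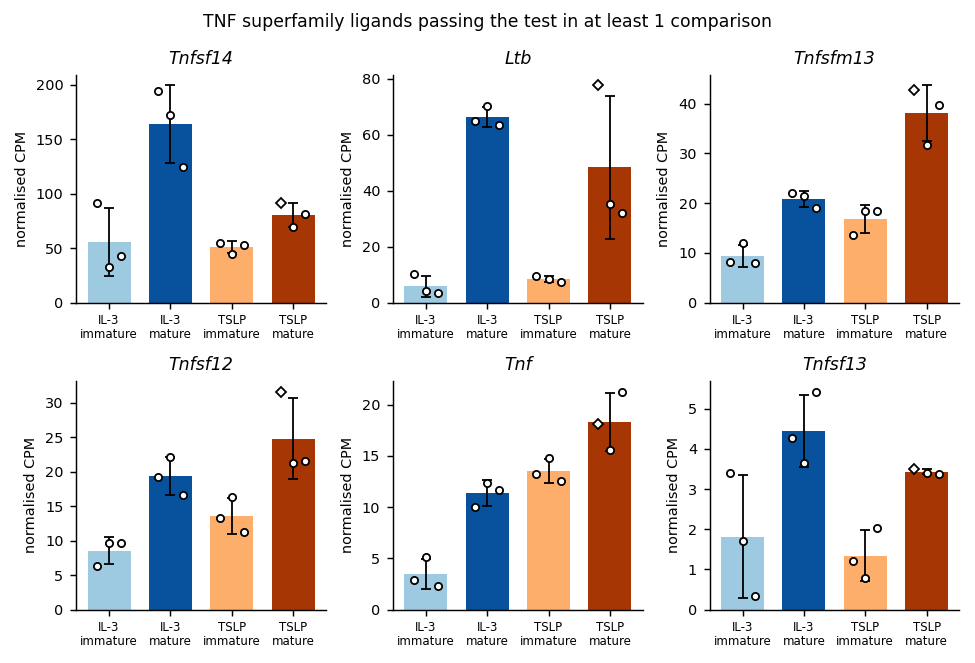
Normalised CPM of the 6 ligands that passed in at least 1 comparison, by group. Bars are means, error bars are SD, points are the 3 libraries of a group and the diamond is TSLP mature 1. Ltb rises from below 11 CPM to above 30 CPM with maturation in both cultures, Tnf is low in the immature IL-3 libraries, and the 3 mature IL-3 libraries of Tnfsf14 are the highest of the 12.

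Of the 2 other ligands over the minimum, Tnfsf10 (TRAIL, a ligand that can induce apoptosis) ranged from 2.46 to 6.81 CPM and passed in none of the comparisons (log2 fold changes from -0.47 to 0.25), except that it was lower in mature TSLP cells in the fit without TSLP mature 2 (-1.15, adjusted p = 0.0439). Tnfsf9, the ligand of the costimulatory receptor 4-1BB, had 59 counts in all and was not tested. Of its 50-base stretches, 11.5% are shared with a gene on the opposite strand.

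Among the receptors, Fas showed the largest maturation effect in IL-3 cultures. Fas is a death-domain receptor for Fas ligand and lies at chr19:34290666-34327772 on the plus strand. The 250 bases before its RefSeq start are shown for the reason given with Ltb (chr19:34290409-34290658 of GRCm38, plus strand). Capitals mark a match to the AP-1 motif TGANTCA (first) and to the STAT motif (second), which do not overlap.
Fas: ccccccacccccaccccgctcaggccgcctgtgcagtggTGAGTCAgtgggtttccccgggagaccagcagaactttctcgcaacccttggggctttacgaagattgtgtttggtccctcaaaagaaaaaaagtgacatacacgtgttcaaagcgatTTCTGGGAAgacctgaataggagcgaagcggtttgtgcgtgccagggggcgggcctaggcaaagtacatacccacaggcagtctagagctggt
In IL-3 cultures Fas was at 3.88, 0.857 and 0 CPM in immature libraries and at 31.0, 22.6 and 25.3 CPM in mature libraries. In TSLP cultures it was at 3.61, 2.73 and 4.09 CPM in immature and at 8.36, 5.67 and 9.85 CPM in mature libraries. The 3 mature IL-3 libraries lay above the other 9, and stages did not overlap in either culture. The rise was 4.27 ± 0.51 on the log2 scale with IL-3 (adjusted p = 4.92e-06), from a base of 11 counts in the 3 immature libraries (5.70 without IL-3 immature 1, 3.60 without IL-3 immature 3), and 1.17 ± 0.47 with TSLP (adjusted p = 0.0765). The latter passed with DESeq2 (1.15, adjusted p = 0.0404), with no filter (1.13, adjusted p = 0.0213), with the TSLP groups alone (1.14, adjusted p = 0.0496) and without IL-3 immature 1 (adjusted p = 0.040) or 3 (adjusted p = 0.0494). In mature cells Fas was 3.30-fold lower with TSLP (-1.72 ± 0.38, adjusted p = 0.00486). The interaction was -3.10 ± 0.74 (adjusted p = 0.0264). It kept its sign in all 12 fits that left out a library, from -4.60 without IL-3 immature 1 to -2.50 without IL-3 immature 3. It was lost without IL-3 immature 2 (-2.82, adjusted p = 0.0936), IL-3 mature 1 (-2.96, 0.0608), 2 (-3.22, 0.0524) or 3 (-3.15, 0.0535), or TSLP immature 1 (-3.08, 0.0727) or 3 (-3.02, 0.0645). In immature cells the cultures overlapped (1.38 ± 0.65, adjusted p = 0.170), although the difference passed without IL-3 immature 1 (2.82, adjusted p = 0.0258). Fasl, the ligand of Fas, had no count in any library, which allows up to 0.0841 CPM over the 12 libraries (3 counts; this limit covers counting error alone).

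The receptors of TNF differed in pattern. Tnfrsf1b encodes TNFR2, which recruits TRAF adaptors and has no death domain, and lies at chr4:145213463-145246870 on the minus strand. Its promoter (chr4:145246871-145247120 of GRCm38, minus strand, from RefSeq) is shown because Tnfrsf1b had the smallest adjusted p of the members in both comparisons of the cultures, and capitals mark a match to the STAT motif.
Tnfrsf1b: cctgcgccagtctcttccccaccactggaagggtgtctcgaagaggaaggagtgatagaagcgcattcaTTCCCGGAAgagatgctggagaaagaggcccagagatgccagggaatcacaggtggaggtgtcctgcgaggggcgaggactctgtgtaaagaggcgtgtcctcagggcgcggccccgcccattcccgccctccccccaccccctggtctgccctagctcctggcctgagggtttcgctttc
Its values were 31.5, 34.6 and 43.0 CPM in immature IL-3, 41.3, 56.1 and 45.1 in mature IL-3, 90.8, 86.7 and 110 in immature TSLP and 94.7, 105 and 106 CPM in mature TSLP libraries. All 6 TSLP libraries lay above all 6 IL-3 libraries. The difference was 2.63-fold in immature cells (log2 fold change 1.39 ± 0.18, adjusted p = 0.000158) and 2.15-fold in mature cells (1.10 ± 0.18, adjusted p = 0.000877), and both calls held in every alternative and in every fit that left out a library. Maturation effects did not pass in either culture (0.38 ± 0.19 with IL-3, adjusted p = 0.107, and 0.09 ± 0.17 with TSLP, adjusted p = 0.746).

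Tnfrsf1a (chr6:125349362-125362484, plus strand) encodes TNFR1, the death-domain receptor of TNF. It was at 3.88, 2.86 and 1.32 CPM in immature IL-3 and at 4.27, 6.19 and 3.61 CPM in mature IL-3 libraries, which overlapped. With TSLP it was at 0.902, 3.13 and 1.70 CPM in immature and at 15.6, 8.80 and 10.8 CPM in mature libraries, and the mature TSLP libraries were the highest 3 of the 12. The rise in TSLP cultures was 6.15-fold (log2 fold change 2.65 ± 0.44, adjusted p = 0.000376, 2.29 without TSLP mature 1). The change in IL-3 cultures was 0.86 ± 0.48 (adjusted p = 0.154), and the interaction, 1.79 ± 0.67, did not pass (adjusted p = 0.156). In mature cells the level was higher with TSLP (1.31 ± 0.39, adjusted p = 0.0241), a call lost without TSLP mature 1 (0.95, adjusted p = 0.094), IL-3 mature 1 (1.23, adjusted p = 0.0785) or IL-3 mature 3 (1.11, adjusted p = 0.110). Per kilobase, Tnfrsf1b was above Tnfrsf1a in every group, at 26.7 ± 1.68 against 4.53 ± 1.36 CPM per kb in mature TSLP cells and at 9.53 ± 1.56 against 1.04 ± 0.497 in immature IL-3 cells.

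Tnfrsf18 (chr4:156026164-156028895, plus strand) was at 40.8, 44.3 and 38.1 CPM in immature IL-3 and at 72.7, 60.1 and 70.8 CPM in mature IL-3 libraries. With TSLP it was at 67.4, 65.6 and 66.4 CPM in immature and at 130, 72.6 and 90.5 CPM in mature libraries. The immature IL-3 libraries lay below the other 9. The rise in IL-3 cultures was 0.72 ± 0.20 on the log2 scale (adjusted p = 0.00807), and was lost without IL-3 immature 3 (0.62, adjusted p = 0.0544). The rise in TSLP cultures (0.56 ± 0.20, adjusted p = 0.0471) was 0.20 without TSLP mature 1 (adjusted p = 0.365). This call was lost in 11 of the 12 fits that left out a library, the exception being that without TSLP mature 2, and under every other alternative except the replicate block, with adjusted p from 0.0709 to 0.157. The difference between cultures in immature cells (0.69 ± 0.20, adjusted p = 0.0328) was lost in 8 of the 12 fits, those without any immature library of either culture or without IL-3 mature 2 or 3 (adjusted p up to 0.120). It was also lost with DESeq2 (0.0519), with DESeq2 size factors (0.055) and with TMM on genes that did not pass (0.0599). In mature cells the cultures did not differ past the threshold (0.53, adjusted p = 0.0606), except without TSLP mature 2 (0.66, adjusted p = 0.0287), and the value was 0.18 without TSLP mature 1. Of the 50-base stretches of Tnfrsf18, 18.7% are shared with Gm16008 on the opposite strand. Tnfsf18, its ligand, had no count in any library.

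Ltbr, the lymphotoxin β receptor, also binds LIGHT. It was at 24.7, 17.1 and 22.2 CPM in immature IL-3, 22.8, 22.6 and 17.6 in mature IL-3, 26.2, 28.5 and 45.3 in immature TSLP and 64.8, 34.9 and 35.7 CPM in mature TSLP libraries. All TSLP libraries lay above all IL-3 libraries. The difference passed in mature cells (1.10 ± 0.27, adjusted p = 0.00988), with a value of 0.66 without TSLP mature 1 (adjusted p = 0.0428) and with a lost call without IL-3 mature 3 (0.94, adjusted p = 0.0586). In immature cells it was 0.65 ± 0.28 (adjusted p = 0.133, or 0.047 without TSLP mature 1). That library is not in the comparison of immature cells and enters it only through the shared fit. Without it, 2243 of all genes passed in immature cells, against 1443 with it. Tnfrsf14, which encodes HVEM, the other receptor of LIGHT, ranged from 6.76 to 13.6 CPM and did not pass in any comparison, its largest difference being 0.65 ± 0.26 between the cultures in mature cells (adjusted p = 0.0853).

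Tnfrsf21, which encodes the death-domain receptor DR6, was at 17.5, 33.1 and 37.1 CPM in immature IL-3, 25.3, 28.4 and 24.4 in mature IL-3, 39.99, 39.1 and 35.4 in immature TSLP and 34.8, 48.2 and 48.9 CPM in mature TSLP libraries. The mature groups did not overlap, and TSLP was higher (0.75 ± 0.23, adjusted p = 0.0291). This call was lost in 8 of the 12 fits that left out a library, those without IL-3 immature 2, IL-3 mature 1, 2 or 3, TSLP immature 1 or 2, or TSLP mature 2 or 3 (0.62 to 0.81 over all 12, adjusted p up to 0.120), and when the 3 ribosomal symbols were left out (0.67, adjusted p = 0.0521). Tnfrsf13b encodes TACI, a receptor of APRIL best known in B cells. It was at 2.43, 2.86 and 1.66 CPM in immature IL-3, 1.78, 2.55 and 2.71 in mature IL-3, 5.11, 4.69 and 1.36 in immature TSLP and 9.71, 4.82 and 9.54 CPM in mature TSLP libraries. Mature cells held more with TSLP (3.42-fold, log2 fold change 1.77 ± 0.47, adjusted p = 0.0131), and the groups did not overlap. The value was 1.52 (adjusted p = 0.0376) without TSLP mature 1, the library with the highest B cell markers, and the call was lost without IL-3 mature 1 (1.60, adjusted p = 0.0556) or 2 (1.79, adjusted p = 0.0523). The replicates of TSLP mature 1 still held 21.3 and 23.1 CPM of B cell markers, against 2.91 to 4.27 CPM in mature IL-3 libraries. The part of the B cell markers in this difference was not tested.

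Tnfrsf26, Tnfrsf22 and Tnfrsf23 lie side by side on chromosome 7 (chr7:143607659-143685872, all on the minus strand), and Tnfrsf22 and Tnfrsf23 encode mouse decoy receptors of TRAIL. They share sequence: 27.4% of the 50-base stretches of Tnfrsf22 and 19.3% of those of Tnfrsf23 occur in another gene, each other included. Tnfrsf26 and Tnfrsf23 also overlap E230032D23Rik on the opposite strand. Tnfrsf26 was at 5.82, 5.43 and 11.9 CPM in immature IL-3, 17.5, 22.9 and 14.0 in mature IL-3, 6.61, 5.86 and 5.79 in immature TSLP and 14.6, 14.2 and 18.5 CPM in mature TSLP libraries. It rose with maturation by 1.22 ± 0.30 on the log2 scale with IL-3 (adjusted p = 0.00336) and by 1.36 ± 0.31 with TSLP (adjusted p = 0.00398), with no overlap of the stages, and both calls held in all 12 fits that left out a library.

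Tnfrsf22 was at 9.70, 10.9 and 8.28 CPM in immature IL-3, 18.2, 21.9 and 23.0 in mature IL-3, 18.3, 13.3 and 18.0 in immature TSLP and 10.8, 33.8 and 29.2 CPM in mature TSLP libraries. It rose in IL-3 cultures (1.12 ± 0.35, adjusted p = 0.0145, or 0.0653 without IL-3 immature 3). In TSLP cultures the low value of TSLP mature 1 lay below all 3 immature libraries, and the change (0.56 ± 0.31, adjusted p = 0.214) passed without that library (0.82, adjusted p = 0.0059). Without the same library, which is not in the comparison of immature cells, Tnfrsf22 also passed there as higher with TSLP (0.75, adjusted p = 0.0223). It did so too with the 2 immature groups alone (0.75, adjusted p = 0.043). Tnfrsf23 was at 0, 1.14 and 0 CPM in immature IL-3, 4.27, 5.46 and 3.61 in mature IL-3, 1.80, 0.781 and 1.02 in immature TSLP and 2.43, 3.69 and 7.08 CPM in mature TSLP libraries. Its stages did not overlap. Its rise with IL-3 (3.18 ± 0.76, adjusted p = 0.00265) is set against 4 counts, all from IL-3 immature 2, without which the group holds no count and a fitted fold has no meaning. It was 2.56 without IL-3 immature 3. Its rise with TSLP (1.78 ± 0.61, adjusted p = 0.0436) held without IL-3 immature 2 or 3 or TSLP mature 1 (1.98) and was lost in the other 9 fits, with values from 1.22 without TSLP mature 3 to 2.15 without TSLP immature 1. The rise was also lost with the replicate block (adjusted p = 0.0508) and when Rn45s (0.0556) or all 3 ribosomal symbols (0.0521) were left out.

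**Figure D4:**
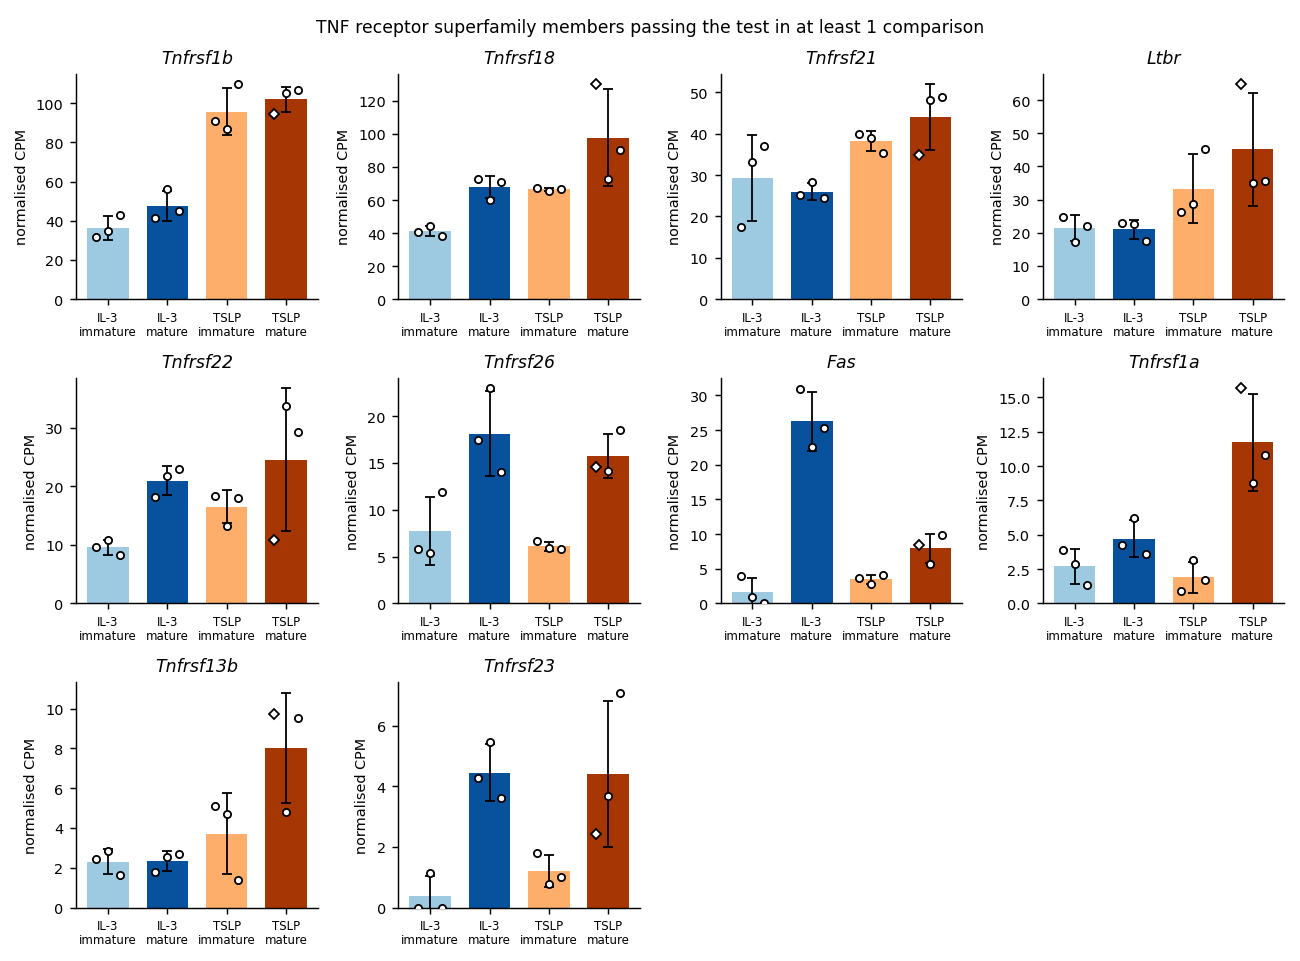
Normalised CPM of the 10 receptors that passed in at least 1 comparison, by group. Bars are means, error bars are SD, points are the 3 libraries of a group and the diamond is TSLP mature 1. Tnfrsf1b and Ltbr are higher in all TSLP than in all IL-3 libraries, Fas is highest in mature IL-3 libraries (22.6 to 31.0 CPM), and Tnfrsf1a in mature TSLP libraries (8.80 to 15.6 CPM).

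The other receptors over the minimum did not pass. Tnfrsf10b, the death receptor of TRAIL, ranged from 5.14 to 15.8 CPM and rose with IL-3 in the fits without IL-3 immature 1 (1.00, adjusted p = 0.0436) or TSLP mature 1 (0.72, adjusted p = 0.0433), against 0.75 ± 0.34 with all libraries (adjusted p = 0.083). Tnfrsf25, the death-domain receptor DR3, ranged from 1.46 to 4.92 CPM, and its log2 fold changes ran from -0.40 to 0.68 without passing. Tnfrsf12a, the receptor of TWEAK, with 51 counts in all, and Tnfrsf4, the costimulatory receptor OX40, with 45, were not tested. Tnfrsf4, at 1.29 CPM on average, was the member just inside the minimum. The members just outside it were Cd40 (0.846), Tnfrsf11a (0.819), Tnfrsf13c (0.674) and Cd27 (0.501 CPM).

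The 19 members under the minimum were near the limit of detection. Of these, 14 had a count in some library and 5 had none, namely Tnfsf8, Fasl, Tnfsf18, Cd70 and Tnfrsf11b. Cd40, the receptor of CD40 ligand, had 35 counts, of which 21 were in TSLP mature 1, where it was at 5.67 CPM against 0.851 and 1.54 CPM in its replicates. Tnfrsf13c, the receptor of BAFF, had no count in any of the 6 IL-3 libraries and 28 counts in the TSLP libraries, with 4.32, 0.284 and 2.46 CPM in mature TSLP libraries 1 to 3. Both genes are known from B cells, and the part of the B cell markers in these values was not tested. Tnfrsf11a, which encodes RANK, had 30 counts, and its ligand Tnfsf11 had 2. Cd27 had 19 counts and Tnfsf13b, the gene of BAFF, had 13. Tnfrsf9 had 8 counts, Tnfrsf8 had 4, Tnfsf15 and Tnfsf13os had 3 each, and Tnfrsf17, Tnfrsf19 and Tnfsf4 had 1 each.

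Setting ligands beside their receptors, pairs with counts for both included Tnf with Tnfrsf1a and Tnfrsf1b, Tnfsf14 with Ltbr and Tnfrsf14, and Ltb with Ltbr. They also included Tnfsf13 with Tnfrsf13b, Tnfsf12 with Tnfrsf12a, Tnfsf9 with Tnfrsf9, and Tnfsf10 with Tnfrsf10b and the decoys Tnfrsf22 and Tnfrsf23. Lta, the partner of Ltb, had 3 counts and Tnfrsf9 had 8, both under the minimum. For Fas, Tnfrsf18, Cd27 and Tnfrsf8 the receptor had counts and the ligand had none.

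Markers of other cell types moved with some of these values. The 9 neutrophil markers summed to 736 CPM in TSLP mature 1 against 36.9 and 25.5 CPM in its replicates, to 742 to 817 CPM in immature IL-3, 269 to 389 in mature IL-3 and 321 to 413 CPM in immature TSLP libraries. The 9 B cell markers, of which 6 stayed under 10 CPM throughout, summed to 6.28 to 8.25, 2.91 to 4.27 and 35.9 to 41.9 CPM in those 3 groups. Of the neutrophil list, Mpo made up most of the sum in immature libraries. In IL-3 cultures it was at 651 to 760 CPM in immature and 0.451 to 2.85 CPM in mature libraries. S100a9 was at 18.2 to 40.8 against 98.7 to 132 CPM there. Ngp, Ltf, Camp, S100a8 and Retnlg were likewise higher in mature IL-3 libraries, while Prtn3 was lower and Elane overlapped. TSLP mature 1 held 17.0 CPM of Mpo and 283 CPM of S100a9. The 6 monocyte and macrophage markers were higher in mature than in immature libraries, at 17.9 to 42.7 against 230 to 318 CPM with IL-3 and at 92.0 to 123 against 360 to 611 CPM with TSLP, and this list thus moved in the same direction as the members that rose with maturation. It was led by Adgre1 and Ly6c2, while C1qa stayed at or under 12.4 CPM in every library. None of the genes of these 3 lists was at 0 in all libraries. The part of such cells in the levels of Tnf, Ltb, Tnfrsf1a and the other members was not tested.

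**Figure D5:**
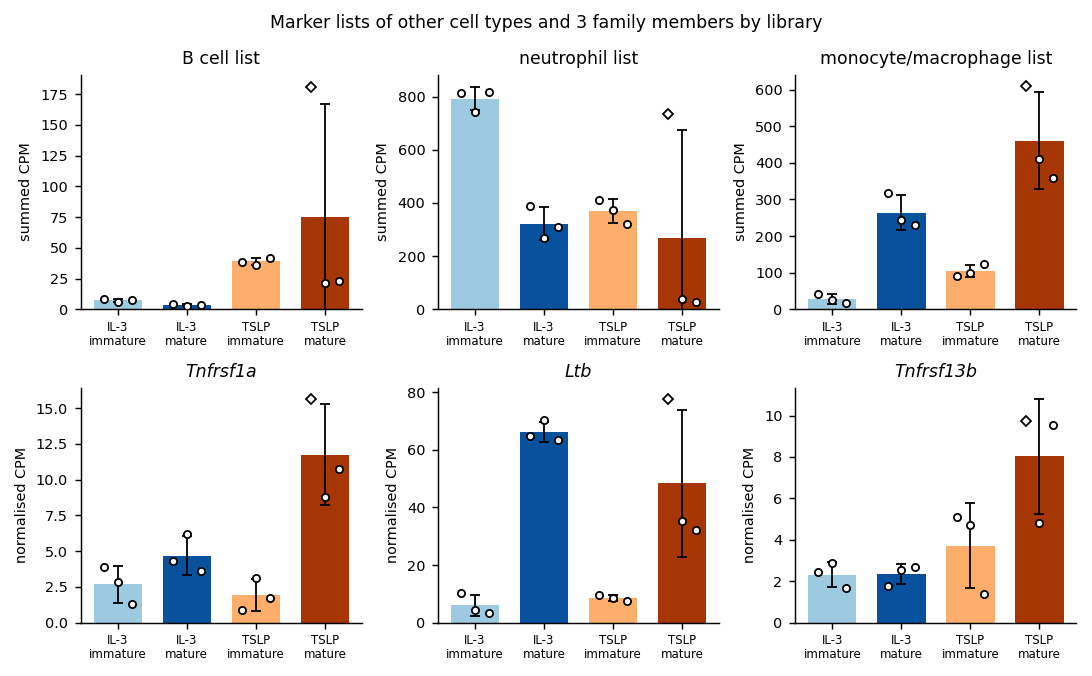
Summed CPM of the B cell, neutrophil and monocyte or macrophage marker lists (top) and normalised CPM of Tnfrsf1a, Ltb and Tnfrsf13b (bottom), by group. Bars are means, error bars are SD, points are libraries and the diamond is TSLP mature 1, which holds 181 CPM of the B cell list against 21.3 and 23.1 CPM in its replicates and is the highest library for Ltb (77.7 CPM) and Tnfrsf1a (15.6 CPM).

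Genes that act downstream of the receptors were followed with a list of 47 genes, of which 45 could be tested. With maturation 22 of them passed in IL-3 cultures (18 higher, 4 lower) and 13 in TSLP cultures (11 higher, 2 lower), the latter 8 without TSLP immature 2. These were 48.9% and 28.9% of the list, near the 46.2% and 25.1% of all genes. The median log2 fold change was 0.42 over the list in IL-3 and 0.20 in TSLP cultures, against the 0.06 and 0.03 of all genes. Between cultures 13 passed in mature cells (8 higher with TSLP, 5 lower, and 6 in all without IL-3 mature 3) and 9 in immature cells (8 higher, 1 lower). These were 28.9% and 20% of the list, against 24.3% and 13.3% of all genes, with list medians of 0.13 and 0.18 against 0.09 and 0.04 for all genes. The count in immature cells was 4 without IL-3 immature 2 or TSLP immature 3 and 14 without TSLP mature 1.

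Traf1, an adaptor bound by TNFR2 and other receptors of the family and itself a known NF-κB target, had no count in immature IL-3 cells. It was at 17.8, 14.6 and 17.1 CPM in mature IL-3, 1.20, 0.391 and 2.04 in immature TSLP and 9.17, 16.2 and 12.9 CPM in mature TSLP libraries. A floor of 3 counts over the immature IL-3 group equals 0.350 CPM. The mean of mature IL-3 cells was 47.2-fold above this floor, and that of immature TSLP cells 3.47-fold above it. The latter mean rests on 4, 1 and 6 counts, and the error of the means is not part of these ratios. In TSLP cultures Traf1 rose by 3.32 ± 0.42 on the log2 scale (adjusted p = 5.57e-05). With Traf1 set to these ratios the list medians stayed at 0.42 and 0.18. They could not move, because Traf1 lay above them at either value. Map3k14, the kinase NIK of the non-canonical NF-κB pathway, rose with maturation by 1.81 ± 0.40 with IL-3 (adjusted p = 0.00153) and by 2.0 ± 0.38 with TSLP (adjusted p = 0.00108). Furin, a proprotein convertase that processes several ligands of the family, rose from 60.0 ± 15.9 to 345 ± 46.98 CPM with IL-3 (2.52 ± 0.20, adjusted p = 6.63e-08) and from 222 ± 10.6 to 416 ± 26.8 CPM with TSLP (0.90 ± 0.19, adjusted p = 0.0025). In immature cells it was higher with TSLP (1.88 ± 0.20, adjusted p = 2.07e-05), and its rise was smaller with TSLP (interaction -1.62 ± 0.27, adjusted p = 0.00314). Traf1 and Furin were the 2 genes of the list that passed in the interaction (4.44%, near the 4.19% of all genes), where 1 passed without IL-3 immature 1, 2 or 3, IL-3 mature 1 or 3, or TSLP immature 1 or 3, and 4 passed without TSLP mature 2 or with DESeq2. Rhbdf2, a partner of the TNF-shedding protease ADAM17, rose with maturation in both cultures, by 1.34 ± 0.22 with IL-3 (adjusted p = 0.000101) and by 1.00 ± 0.20 with TSLP (adjusted p = 0.00184).

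Some genes of the death branch were lower in mature cells. Ripk3, a kinase of necroptosis, fell with maturation from 44.7 ± 6.75 to 5.54 ± 2.51 CPM with IL-3 (-2.97 ± 0.35, adjusted p = 4.52e-06) and from 44.5 ± 5.37 to 16.1 ± 8.50 CPM with TSLP (-1.46 ± 0.30, adjusted p = 0.00198), and was higher with TSLP in mature cells (1.52 ± 0.37, adjusted p = 0.00875). Mlkl, its substrate, fell with IL-3 (-2.95 ± 0.59, adjusted p = 0.000655), from a mean of 10.4 to a low 1.29 CPM. With TSLP the change in Mlkl did not pass (-0.92 ± 0.51, adjusted p = 0.206), and the stages overlapped. Bid, a target of caspase 8, rose with maturation in both cultures (1.30 ± 0.18 with IL-3, adjusted p = 2.86e-05, and 0.71 ± 0.17 with TSLP, adjusted p = 0.00677), and Casp8 did not pass in any comparison. Among regulators of NF-κB, Nfkbie, an inhibitor of NF-κB, was higher with TSLP in immature (1.42 ± 0.18, adjusted p = 0.000108) and mature cells (0.77 ± 0.17, adjusted p = 0.00428). Rbck1, a subunit of the linear ubiquitin ligase, was also higher with TSLP in mature cells (0.88 ± 0.17, adjusted p = 0.00216), while the deubiquitinase gene Cyld (-0.90 ± 0.23, adjusted p = 0.0116) and Cflar, the gene of the caspase 8 inhibitor FLIP (-0.78 ± 0.25, adjusted p = 0.0314), were lower.

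Promoters were described by motif matches in the 250 bases before the RefSeq start, found for 18 of the 23 members over the minimum, with 19 starts. The STAT motif, chosen because the receptors of IL-3 and TSLP both signal through STAT5, occurred in 6 of these members (Ltb, Fas, Tnfrsf1a, Tnfrsf1b, Tnfrsf18 and Tnfrsf25) and in 7.02% of 32851 mouse promoters. In 3 of these 6, Tnfrsf1a, Tnfrsf18 and Tnfrsf25, the match lies inside the gene as GENCODE annotates it. The NF-κB motif occurred in 3 (Ltb, Tnfrsf13b and Tnfrsf25), against 4.93% of all promoters. The AP-1 motif occurred in 3 (Fas, Tnfsf13 and Tnfsf14), against 6.75%, and that of Tnfsf13 lies inside the annotated gene. The GATA motif AGATAA was in none of the 18, against 9.99% of all promoters. A match is a stretch of letters and was not tested for binding.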

How the data were processed

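Polyadenylated RNA of 12 libraries was sequenced on an Ion Proton instrument. The authors deposited raw counts per gene symbol in a single table. Per the methods of the study, the authors trimmed reads with Cutadapt, aligned them with Bowtie2 to mouse reference RNA of GRCm38 and counted reads per gene, while the submitters' processing notes list GRCm39 and mm10. No source used here gives the strand setting or the treatment of reads that match several genes. Counts of Rn45s equalled 1.00 to 1.02 times the sum of Rn18s and Rn28s1 in each library, so such reads appear to be counted for each symbol they match. Rn45s took 7.43% to 20.2% of the counts. An unnamed row that held the sum of all others (50% of each column) was left out. The labels give the TSLP dose in conflicting units, and that of the treatment protocol was used.

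Counts were tested with edgeR 4.0.16 (quasi-likelihood test, R 4.3.3). The filterByExpr filter was applied (minimum count 10, minimum total 15), which left 10861 genes, libraries were scaled by TMM, and a single fit held the means of the 4 groups. Benjamini-Hochberg adjustment of p values covered all genes tested, and the threshold was 0.05. The contrasts within a stage and within a culture share groups. p values measure the spread between 3 cultures a group. DESeq2 1.42.0, other scalings, filters, sample sets, a replicate block and leaving out each library were the alternatives, and leaving out all 3 ribosomal symbols was added after the data were seen. The members and the signalling, marker and motif lists were chosen with earlier results of these data known. All members at or over 1 CPM are named. Of the signalling list, up to 3 genes with the largest change in each direction of a comparison are named, and Bid, Casp8 and the single marker genes were named after their values were seen. Coordinates and exon lengths are from GENCODE M21 (GRCm38), and shared sequence was measured as exact 50-base stretches of transcripts. At these depths 3 counts in a group equal 0.286 to 0.386 CPM, and limits of this kind cover counting error alone. Single genes of the signalling and marker lists that met the naming rule are in part not reported here.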

Additional observations from a re-analysis of the deposited data

Results flagged for a closer look

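The maturation effect on Fas differed between the cultures by the interaction test of edgeR, with a log2 difference of -3.10 (TSLP minus IL-3). Fas passed the adjustment over all genes in this test with all libraries, and lost it in 6 of the 12 fits that left out a library. The part of the low counts in the IL-3 immature libraries, which held 8, 3 and 0 counts, was not tested.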

How the results depend on the processing

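Over the alternatives, no called value of a member changed sign. Of the 31 calls of a member in a comparison, 17 held in all 12 fits that left out a library and 24 under every other alternative that tested them. Leaving out a library moved the number of members called from 8 to 12 with maturation in IL-3 and from 4 to 8 in TSLP cultures, from 4 to 8 between cultures in mature and from 2 to 6 in immature cells, and from 0 to 2 in the interaction. The corresponding ranges for the signalling genes were 19 to 25, 8 to 15, 6 to 12, 4 to 14 and 1 to 4. With a filter of 10 CPM in 3 libraries, 14 members were tested and 4 passed with maturation in TSLP cultures. With DESeq2, 2 members passed between cultures in immature cells, and 4 signalling genes passed in the interaction. The stricter filter tests fewer genes. A library outside a comparison can change its calls only through the shared fit, that is the filter, scaling, estimate of spread and adjustment. Without TSLP mature 1, more of all genes passed in every comparison. The cause of the other changes was not tested.

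Whether the replicate numbers pair the libraries was not settled: 6 of 18 same-numbered pairs correlated above 0.1 (range -0.08 to 0.40), and 7 of 12 libraries correlated best with their own number. The main fit did not use these numbers. Over all genes, more passed with the replicate block in every comparison, as with maturation in TSLP cultures (3067 against 2731). With the replicate block 29 of the 31 calls held, Tnfsf13 with IL-3 maturation (1.36) and Tnfrsf23 with TSLP maturation (1.73) were lost, and 1 was gained. The numbers of members called with the block were 10 and 7 with maturation in IL-3 and TSLP cultures, 8 and 4 between cultures in mature and immature cells, and 1 in the interaction. The minimum of 1 CPM kept 23 members without TMM and without Rn45s. Over all genes, the share of higher calls with TSLP in mature cells was 38.3% to 49.1%, and that with maturation in TSLP cultures 39.4% to 51.3%, in fits that left out a library. Depth limits the members under about 5 CPM, for which a library held few counts.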

Other observations

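Promoter starts in RefSeq and GENCODE differ for some members: the RefSeq window of Ltb reached into annotated exons of Ltb, and the bases shown for it end before the first of these. Counts of Tnfsfm13 came to 83, 163, 146 and 399 in immature and mature IL-3 and in immature and mature TSLP groups, in that order, while those of Tnfsf12 and Tnfsf13 together came to 90, 186, 131 and 298.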
